A study of Mus musculus with 20 samples.

Results

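The 8 hepatic genes of glucose and fructose use described here were followed by name on mouse liver arrays: Gckr, Pklr, Pfkfb1, Pfkl, Khk, Gpi1, Sord and Txnip. Of these 8, 5 (Gckr, Pklr, Pfkl, Khk and Txnip) had a probe set annotated to that gene alone, out of 18193 genes so named. All 5 were among the 12947 genes tested. The expression of Pfkfb1, Gpi1 and Sord was not analysed here. Where a gene had several probe sets, the one brightest on average across the 20 arrays stands for it.

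The mice were male BALB/c, 6 weeks old on arrival, with 1 array of liver RNA per mouse and 5 arrays in each of 4 groups. Untreated mice received no injection and ate plain AIN93G diet. STZ mice were given streptozotocin at 185 mg/kg into the peritoneum, which destroys the insulin-producing beta cells, and ate the same plain diet. The other 2 groups received STZ and then AIN93G with 0.1% or 0.5% phloridzin, a compound of apple trees that blocks the transporters coupling glucose to sodium. Diets lasted 14 days. Each injected mouse had entered with a blood glucose of 330 to 590 mg/dL. Since untreated mice had no vehicle injection, the effects of STZ and of being injected cannot be told apart.

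The liver is the organ that takes up most dietary fructose and stores much of the absorbed glucose. Gckr encodes a regulatory protein of hepatic glucose use whose action is relieved by fructose 1-phosphate. Ketohexokinase, encoded by Khk, makes that fructose 1-phosphate. Phosphofructokinase (Pfkl, the liver subunit) and pyruvate kinase (Pklr, the liver and red cell form) catalyse committed steps of glycolysis. Pklr and Txnip are textbook targets of ChREBP (gene Mlxipl), a factor that responds to carbohydrate and binds a paired E-box element. TXNIP is an arrestin-like protein that binds thioredoxin and restrains glucose uptake.

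The stretches before the start of Pklr and Txnip are shown because both hold such a paired element close to the start. The 250 bases upstream of the start are in lower case, the element in capitals, from RefSeq on build GRCm38.p6, plus strand, 5′ to 3′. The Pklr window is chr3:89136373-89136622 and the Txnip window chr3:96557707-96557956.
Pklr: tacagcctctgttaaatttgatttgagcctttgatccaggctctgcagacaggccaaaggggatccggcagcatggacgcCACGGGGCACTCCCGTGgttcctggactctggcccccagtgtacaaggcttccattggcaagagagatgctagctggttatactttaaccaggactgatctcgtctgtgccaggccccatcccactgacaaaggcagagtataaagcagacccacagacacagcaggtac
Txnip: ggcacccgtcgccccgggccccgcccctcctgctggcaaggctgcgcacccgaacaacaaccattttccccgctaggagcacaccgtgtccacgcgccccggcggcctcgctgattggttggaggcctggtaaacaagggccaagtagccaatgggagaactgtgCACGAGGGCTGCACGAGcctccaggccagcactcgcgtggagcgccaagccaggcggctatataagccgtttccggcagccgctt
The form searched, on both strands, was CACGNG, then any 5 bases, then CNCGNG, with N any base. It was written with the known elements of these 2 genes in mind, so the match is a description. The Pklr match, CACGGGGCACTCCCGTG, reads as the same form on both strands and begins 170 bases before the start. The Txnip match, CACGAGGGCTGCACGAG, begins 85 bases before. Of 32851 such windows of 300 bases (250 before to 50 after a start), 0.365% held this form.

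The single E-box CACGTG was searched too, on both strands. Khk held it 71 bases before its start, at the capitals in the 30 bases of chr5:30921476-30921505, plus strand.
Khk: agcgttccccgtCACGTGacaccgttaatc
This hexamer was found in 7.15% of all windows. The windows of Gckr, Pfkl, Gpi1 and Sord, all those of Pfkfb1, and the second, upstream start of Pklr held neither form. No binding was measured here.

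In STZ liver Pklr fell and Gckr rose, while Pfkl, Khk and Txnip did not pass the test. Thus 1 of 5 measured genes was called higher and 1 lower by limma (adjusted p under 0.05), where 6.9% of all tested genes were called higher and 6.89% lower. In total 13.8% of genes were called. Of the calls, 893 were higher and 892 lower, which became 1138 and 509 with arrays centred on their median. On the probe sets used, signals of the 2 groups overlapped for each of the 5 genes, whereas 12.9% of all genes showed no overlap. The median difference of the 5 genes was 0.07 log2 units against −0.05 over all tested genes. Signals are linear array values scaled to the same trimmed mean on each array, and log2 differences and folds are of the signal plus 16. In whole liver, fewer cells of a type and less RNA per cell cannot be told apart.

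Pklr, the last enzyme of glycolysis, had signals of 1014, 763, 1000.2, 921 and 965 in untreated replicates 1 to 5. The STZ mice had 821, 370, 323, 259 and 324. Replicate 1 of the STZ mice thus lay inside the untreated range and the other 4 lay below it. The mean signal was 419 ± 228 (SD, n = 5) in STZ against 933 ± 101 in untreated liver, a log2 difference of −1.24 ± 0.38 (SE), or 2.36-fold lower (limma adjusted p = 0.0326). Without STZ replicate 1 the difference was −1.51 (adjusted p = 0.00902).

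The fall of Pklr kept its direction under every setting tried and with any array left out. Leaving out any of untreated replicates 1, 3, 4 and 5 or STZ replicates 2 to 5 brought the limma adjusted p above 0.05, to 0.0823 at the highest. It also ended with a pseudocount of 1 (0.0502) and with a trended robust prior (0.0513). The 3 Pklr probe sets gave log2 differences of −1.21, −1.42 and −1.24. In a limma fit added after seeing the data, across 23016 single-gene probe sets their adjusted p were 0.0782, 0.0495 and 0.0376.

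Pklr was not raised by phloridzin beyond the spread between mice. Mice given STZ plus 0.1% phloridzin had signals of 976, 448, 426, 436 and 165, and those given STZ plus 0.5% had 227, 814, 347, 786 and 355. In all, 4 of 15 STZ-injected mice lay inside the untreated range and 11 below it. They were STZ replicate 1, replicate 1 of the 0.1% group and replicates 2 and 4 of the 0.5% group. Against STZ alone the log2 difference was 0.14 (95% interval −0.64 to 0.93) for 0.1% and 0.22 (−0.57 to 1.00) for 0.5% phloridzin.

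Against untreated liver, Pklr was 2.14-fold lower with 0.1% phloridzin (log2 −1.10 ± 0.38) and 2.03-fold lower with 0.5% (−1.02 ± 0.38). Neither passed the threshold by limma, with adjusted p of 0.0501 and 0.0790. With only the 2 groups compared in the fit both were called (0.0370 and 0.0415). Without replicate 1 of the 0.1% group the first was −1.39 (adjusted p = 0.00983), and it was also called without STZ replicate 1 or replicate 1, 2 or 4 of the 0.5% group. The second was called without replicate 5 of the 0.1% group, and without replicate 2 or 4 of the 0.5% group it was −1.23 or −1.22. The means of the 4 groups ran from STZ (419), 0.1% (490) and 0.5% phloridzin (506) to untreated (933). The 3 STZ-injected groups did not differ beyond their spread.

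Red cell precursors also make a form of this enzyme from Pklr, so markers of that lineage are given beside it. Of 5 listed markers 3 had a probe set, and only Alas2, the erythroid form of the first enzyme of heme synthesis, exceeded background, whereas the globin gene Hba-a1 had a mean signal of 5.97. Alas2 signals were 1258 to 1443 in untreated mice. In STZ replicates 1 to 5 they were 1365, 330, 379, 302 and 194, so that replicate 1 was again the high mouse. The fall was 3.22-fold (limma adjusted p = 0.0328), and against untreated it was 3.46-fold with 0.1% and 2.95-fold with 0.5% phloridzin (adjusted p = 0.0204 and 0.0499). The 4 STZ-injected mice with the highest Pklr had Alas2 signals of 1098, 1365, 871 and 857, above the 124 to 575 of the other 11. Slc4a1, the remaining marker, had a mean signal of 12.2 and was not called against untreated. Its log2 differences were −0.40, −0.19 and −0.12 for STZ, 0.1% and 0.5% phloridzin (limma adjusted p = 0.169, 0.525 and 0.742). The summed erythroid markers, almost all Alas2, ran from 1280 to 1466 in untreated and from 202 to 1374 in STZ mice. Their part in the Pklr difference was not tested.

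**Figure D1:**
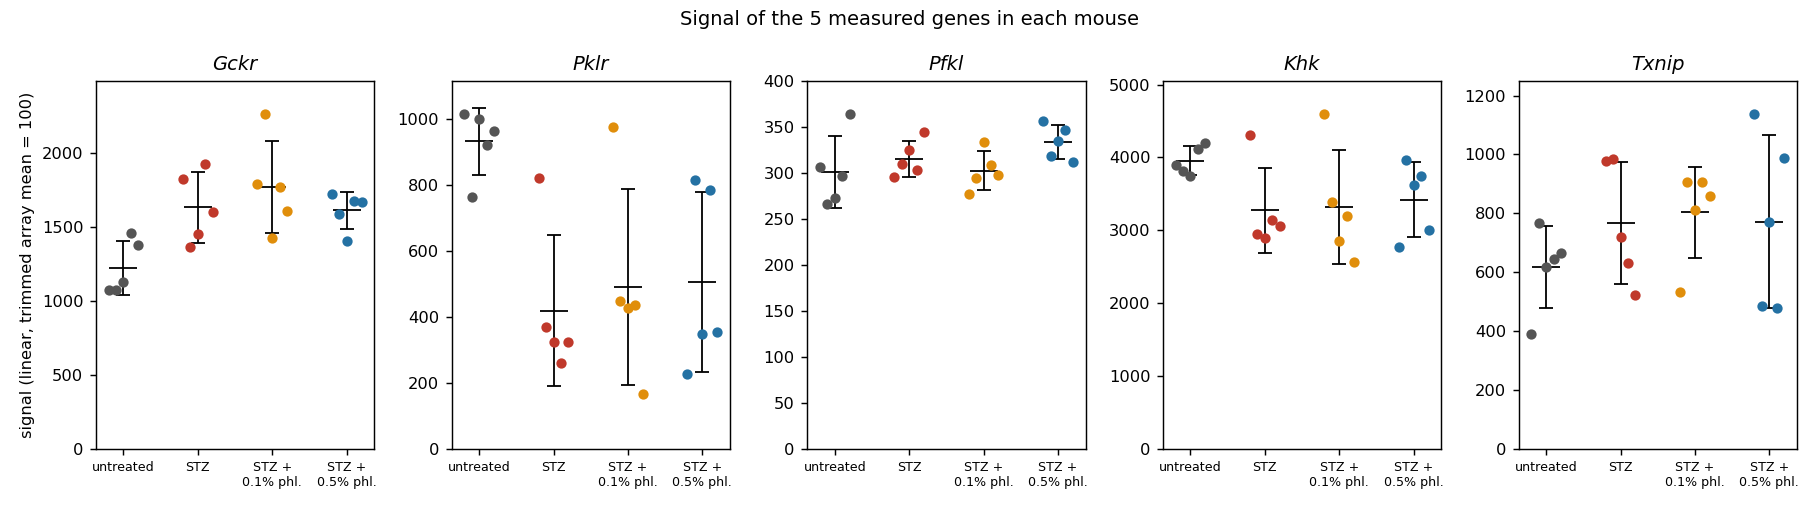
Signal (linear scale, y axis) of Gckr, Pklr, Pfkl, Khk and Txnip in each mouse, by group; each point is 1 mouse and the bars are the mean ± SD of 5 mice. For Pklr, 4 STZ-injected mice lie within the untreated range of 763 to 1014 and the other 11 lie below it; phl. stands for phloridzin.

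Gckr, the gene of this fructose 1-phosphate-sensitive regulator, had signals of 1076, 1072, 1128, 1459 and 1377 in untreated liver. In STZ liver they were 1827, 1361, 1451, 1924 and 1599, of which 3 of 5 exceeded the untreated range. The mean was 1632 ± 240 against 1222 ± 182, a log2 rise of 0.41 ± 0.13, or 1.33-fold (limma adjusted p = 0.0364). Gckr has 1 probe set on this array.

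The rise of Gckr against untreated mice was also called in both phloridzin groups. With 0.1% phloridzin the signals were 1788, 2260, 1427, 1773 and 1609, and 4 of 5 lay above the untreated range. The rise was 1.44-fold (log2 0.52 ± 0.13, limma adjusted p = 0.00823). With 0.5% phloridzin they were 1723, 1589, 1404, 1675 and 1665, again 4 of 5 above, and the rise was 1.32-fold (0.40 ± 0.13, adjusted p = 0.0425). In each of these comparisons Gckr was the 1 gene of 5 called, beside 7.76% of all genes called higher and 8.98% lower (16.7% in all) with 0.1%, and 6.53% higher and 6.18% lower (12.7% in all) with 0.5% phloridzin. All 5 genes overlapped with untreated in both, where 13.2% and 11.1% of genes did not. All 3 comparisons share the untreated arrays.

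In the 0.1% comparison the call of Gckr held under every setting and with each array left out, with a largest leave-one-out adjusted p of 0.0262. Against STZ alone no rise or fall was seen: the log2 differences were 0.11 (95% interval −0.15 to 0.38) for 0.1% and −0.01 (−0.28 to 0.26) for 0.5% phloridzin. For STZ the call was lost by leaving out any of untreated replicates 1, 2 and 3 or STZ replicates 1, 4 and 5 (limma adjusted p up to 0.0958), and by quantile normalization (0.0563). For 0.5% phloridzin it was lost when untreated replicate 1, 2 or 3, STZ replicate 5 or 0.5% replicate 1, 4 or 5 was dropped (up to 0.105).

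Khk, the first enzyme of fructose breakdown, had signals of 3892, 3814, 3742, 4113 and 4204 in untreated liver. The STZ mice had 4311, 2954, 2887, 3145 and 3065. Replicate 1 was thus above the untreated range and the other 4 were below it. The mean was 3272 ± 589 against 3953 ± 198, and the log2 difference of −0.29 (95% interval −0.58 to 0.01) did not pass the test (limma adjusted p = 0.194). Without STZ replicate 1 it was −0.39 (adjusted p = 0.0621).

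With 0.1% phloridzin Khk had signals of 4591, 3389, 2847, 3202 and 2570. With 0.5% it had 2765, 3971, 3625, 3751 and 3001. Against untreated liver the log2 differences were −0.28 and −0.22 (limma adjusted p = 0.193 and 0.344). Without replicate 1 of the 0.1% group the first was −0.40 and was called (adjusted p = 0.0341). In all, 11 of 15 STZ-injected mice were below the untreated range, 2 within and 2 above it.

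Txnip, a glucose-induced gene in many tissues, had untreated signals of 390, 766, 617, 646 and 667. STZ mice had 978, 986, 721, 631 and 523, which overlapped them. The mean was 768 ± 208 against 617 ± 139, with a log2 difference of 0.30 (95% interval −0.20 to 0.80, limma adjusted p = 0.446). Without untreated replicate 1 it was 0.15. A second Txnip probe set gave 0.29. With 0.1% phloridzin the signals were 533, 906, 812, 905 and 857, and with 0.5% they were 1136, 485, 769, 479 and 988. Of 15 STZ-injected mice, 9 exceeded the untreated range and 0 fell below it. The low end of that range, 390, was untreated replicate 1 alone, and the next lowest untreated signal was 617. STZ-injected signals of 479, 485, 523 and 533 lay between them. No comparison of the 6 was called for Txnip; the largest difference was 0.38 for 0.1% phloridzin against untreated (−0.12 to 0.88, adjusted p = 0.306). At 0.5% the difference from untreated was 0.26, and 0.10 without 0.5% replicate 1.

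Pfkl, the liver phosphofructokinase subunit, varied least among the 5 genes on the probe sets used. Its signal ran from 266 to 364 in untreated mice, and all 15 STZ-injected mice, from 278 to 357, lay within that range. The STZ difference was 0.07 log2 units (95% interval −0.11 to 0.26, limma adjusted p = 0.645). A second Pfkl probe set gave −0.21 (limma adjusted p = 0.191), so the probe sets disagreed in sign. On this second probe set the STZ signals of 155 to 173 did not overlap the untreated 174 to 218. With 0.1% and 0.5% phloridzin they were 159 to 213 and 160 to 210, which overlapped untreated. The third had signals of 8.76 to 23.2, near the highest array median of 17.1, which is taken here as the background level.

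Phloridzin moved none of the 5 genes past the threshold. At 0.1% against STZ, 0.5% against STZ and 0.5% against 0.1% phloridzin, limma called 0 of 5 genes, and 0 of 5 had an unadjusted p under 0.05. All 5 overlapped between groups, where 0.68%, 0.842% and 0.803% of all genes did not. Over all 12947 genes 0% were called in each of the 3 comparisons, with 685, 622 and 840 genes at an unadjusted p under 0.05. The largest difference between the doses was 0.14 log2 units, for Pfkl (95% interval −0.05 to 0.32). The comparisons of each dose with STZ share the STZ arrays. The plot of differences shows the wide interval of Pklr beside the narrow one of Pfkl.

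**Figure D2:**
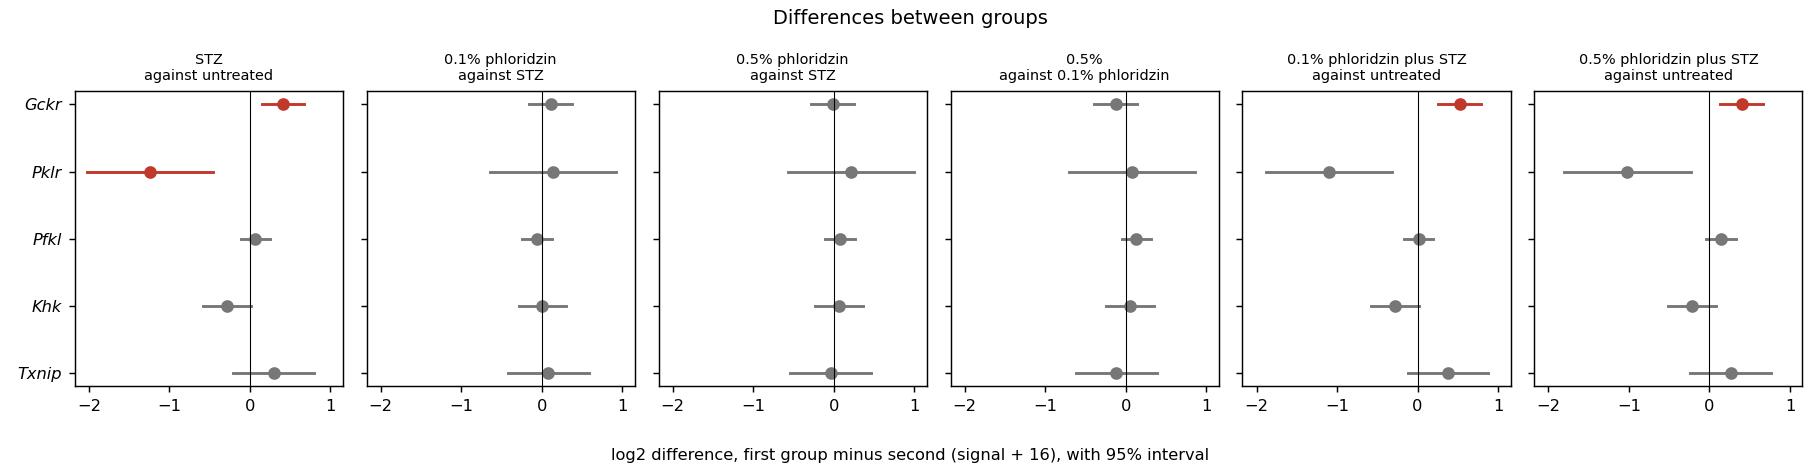
Log2 difference (x axis, signal plus 16, first group minus second) of each of the 5 genes in the 6 comparisons, with its 95% interval; red marks a limma adjusted p under 0.05. Gckr is red in the 3 comparisons with untreated liver, Pklr in STZ against untreated, and no gene in the 3 comparisons among STZ-injected groups.

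The spread of Pklr among STZ-injected mice was shared by Khk. The 4 of 15 mice with the highest Pklr signals were the 4 with the highest Khk signals, in the same order: replicate 1 of the 0.1% group, STZ replicate 1, and replicates 2 and 4 of the 0.5% group. Their Khk signals were 4591, 4311, 3971 and 3751, next to 3625 in the following mouse. Their Txnip signals were 533, 978, 485 and 479, ranks 12, 4, 14 and 15 from the highest of 15. Their Gckr ranks were 4, 3, 11 and 7. This pattern was noticed in the data and is a description. Of the 12946 other tested genes, 1.8% had the same 4 mice highest and 1.56% had them lowest.

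Among the 51 other tested genes of the pathway lists, Khk and Tkfc had the same 4 mice highest. Tkfc encodes triokinase, which acts after ketohexokinase and aldolase in fructose breakdown, and its signals in these mice were 520, 538, 537 and 641. Arrdc4 and Txn2 had them lowest. In STZ mice Tkfc signals ran from 414 to 538 against 385 to 557 in untreated mice, and it did not pass the test.

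**Figure D3:**
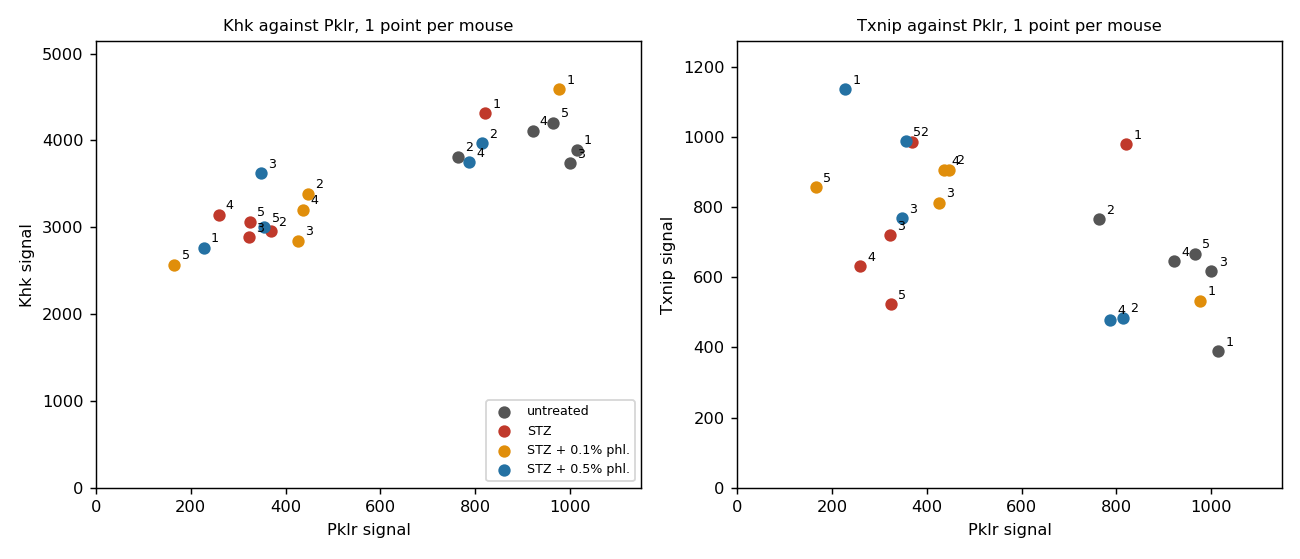
Khk signal (left, y axis) and Txnip signal (right, y axis) against Pklr signal (x axis), linear scales from 0; each point is 1 mouse, coloured by group and marked with its replicate number (phl., phloridzin). The 4 STZ-injected mice with Pklr signals of 786 to 976 have Khk signals of 3751 to 4591, and 3 of these 4 have Txnip signals of 479 to 533.

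The genes with the most similar pattern were taken, for Gckr and Pklr, as those with the smallest mean absolute difference of centred log2 values over 20 arrays. For Gckr they were Rmdn3 (0.090 log2 units) and Psap (0.106), the latter a precursor of lysosomal saposins. Rmdn3 had mean signals of 272 in untreated, 348 in STZ, 351 in 0.1% and 326 in 0.5% phloridzin mice. For Pklr they were Sdf2l1, an endoplasmic reticulum protein (0.246), and Gna14, a G protein alpha subunit (0.249), against a range of 2.51 log2 units for Pklr itself. Sdf2l1 had mean signals of 297, 128, 104 and 103 in that order of groups.

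Of 23 other listed enzymes of glycolysis, 17 were tested. In STZ against untreated liver 0 of 17 were called by limma, beside 13.8% of all genes. The list median was 0.05 log2 units against −0.05 over all tested genes. Of the 17, 6 had an unadjusted limma p under 0.05, as did 28.4% of all genes. Pfkfb3, a kinase that makes the activator of phosphofructokinase, missed the threshold with signals of 103 ± 61 against 32.7 ± 9.3 (log2 1.16, limma adjusted p = 0.0829). Pkm, the pyruvate kinase of other tissues, was called higher with 0.1% phloridzin against untreated (80.0 ± 20.7 against 56.3 ± 8.8, adjusted p = 0.0410). Aldoc, an aldolase, was called higher with 0.5% (153 ± 26 against 113 ± 5, limma adjusted p = 0.0386). In each of these comparisons 1 of 17 was called, beside 16.7% of all genes with 0.1% and 12.7% with 0.5% phloridzin. The call of Pkm ended when untreated replicate 2, 3 or 5 or 0.1% replicate 2 or 5 was left out (limma adjusted p up to 0.110). It also ended with no filter (0.0538), with only the 2 groups compared (0.0852), with the replicate block (0.0572) and with STZ replicate 1 and 0.1% replicate 4 both left out (0.0532). That of Aldoc ended when any untreated mouse or 0.5% replicate 1, 4 or 5 was left out (up to 0.112), with median centring (0.0552), with no filter (0.0511), and with only the 2 groups compared (0.0539). Averaging probe sets moved the Aldoc difference from 0.37 to 0.23 log2 units (limma adjusted p = 0.0776).

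Genes that set the fate of pyruvate included 3 of 13 tested called higher and 1 lower in STZ liver, beside 6.9% and 6.89% of all genes, with a median of 0.05 log2 units. Pdk2, a kinase that switches off pyruvate dehydrogenase, rose 1.73-fold (633 ± 63 against 359 ± 42, limma adjusted p = 0.00209). Pdha1, the catalytic subunit of that dehydrogenase, rose by 0.48 on the log2 scale (adjusted p = 0.00213), and the mitochondrial pyruvate carrier gene Mpc1 rose 1.33-fold (0.0167). For these 3 genes every STZ mouse exceeded every untreated mouse, where 12.9% of all genes showed no overlap in either direction. Pdk1, another kinase of the complex, fell 1.36-fold (adjusted p = 0.020). Dropping untreated replicate 1 ended the call of Mpc1 (0.0531). The call of Pdk1 was lost by dropping untreated replicate 2, STZ replicate 4 or STZ replicate 5 (up to 0.0608), by median centring (0.0525) and by averaging probe sets (0.0502).

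The same list had 3 genes higher and 1 lower with 0.1% phloridzin against untreated liver, and 2 higher with 0.5%. Over all genes 7.76% were higher and 8.98% lower with 0.1%, and 6.53% higher with 0.5%. Pdk2 was 1.75-fold and 1.52-fold higher, and Pdha1 1.46-fold and 1.37-fold. Without 0.5% replicate 1 the call of Pdk2 in the 0.5% group ended (limma adjusted p = 0.0525).

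Of 6 tested genes of fructose and polyol handling, 1 was called in STZ liver, near the 13.8% of all genes called, with a list median of 0.02 log2 units. Slc2a5, the fructose transporter GLUT5, rose from a signal of 46.4 ± 10.9 to 78.9 ± 7.6 (1.54-fold, limma adjusted p = 0.0179). The STZ signals of 72.7 to 92.0 did not overlap the untreated 33.7 to 63.4. The mean was 89.8 ± 19.97 with 0.1% and 82.7 ± 29.7 with 0.5% phloridzin, both called against untreated (adjusted p = 0.00447 and 0.0172). Dropping untreated replicate 1 (0.0553) or STZ replicate 5 (0.0517) ended the STZ call, and dropping untreated replicate 1 ended that at 0.5% (0.0554).

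ChREBP and the relatives and partners of TXNIP changed in both directions, with 4 of 11 tested genes higher and 2 lower in STZ liver, beside 6.9% and 6.89% of all genes, and a list median of −0.08 log2 units. Arrdc4, an arrestin-like relative of Txnip, had signals of 35.7 to 44.5 in untreated and 80.4 to 170 in STZ mice, without overlap. It rose 2.54-fold (log2 1.35 ± 0.16, limma adjusted p = 2.45e-05), 2.40-fold with 0.1% and 2.42-fold with 0.5% phloridzin against untreated, and kept its call under every setting and with each array left out. The thioredoxin reductase genes Txnrd1 (1.46-fold) and Txnrd2 (1.54-fold) and the mitochondrial thioredoxin Txn2 (1.41-fold) rose as well. Averaging probe sets ended the calls of Txnrd1 and Txnrd2 (limma adjusted p = 0.125 and 0.110).

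The 2 lower genes of this list are named after their values were seen. Mlxipl, which encodes ChREBP, had signals of 1047, 1064, 1195, 1223 and 1407 in untreated mice and 1025, 553, 633, 906 and 949 in STZ mice, all below the untreated range. It fell 1.48-fold (limma adjusted p = 0.0251) and was not called in either phloridzin group. This call was lost by dropping any of untreated replicates 3 and 5 and STZ replicates 2 and 3 (up to 0.0742), and by median centring (0.0672). Arrdc3, another arrestin-like gene, had untreated signals of 1717 to 2394, and STZ signals of 1644, 575, 343, 562 and 189, again all below. It fell 3.96-fold (log2 −1.99 ± 0.55, adjusted p = 0.0206), a call that ended without STZ replicate 3 (0.0507) or STZ replicate 5 (0.0677).

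Phloridzin moved none of these genes past the threshold either: against STZ at both doses, and between doses, limma called 0 genes in each of the 4 lists, with 2, 3 and 1 of 47 at an unadjusted p under 0.05. Against untreated, the Txnip list had 4 genes higher and 1 lower with 0.1% phloridzin, and 3 higher and 1 lower with 0.5%, where 16.7% and 12.7% of all genes were called. Arrdc3 was the lower gene in both, at 3.34-fold and 4.21-fold (adjusted p = 0.0342 and 0.0171). At 0.5% that call ended without 0.5% replicate 1 (0.0624), and at 0.1% it ended without any 1 of the untreated mice or 0.1% replicate 3, 4 or 5 (up to 0.111), with a pseudocount of 1 (0.053) and with a trended robust prior (0.0609).

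**Figure D4:**
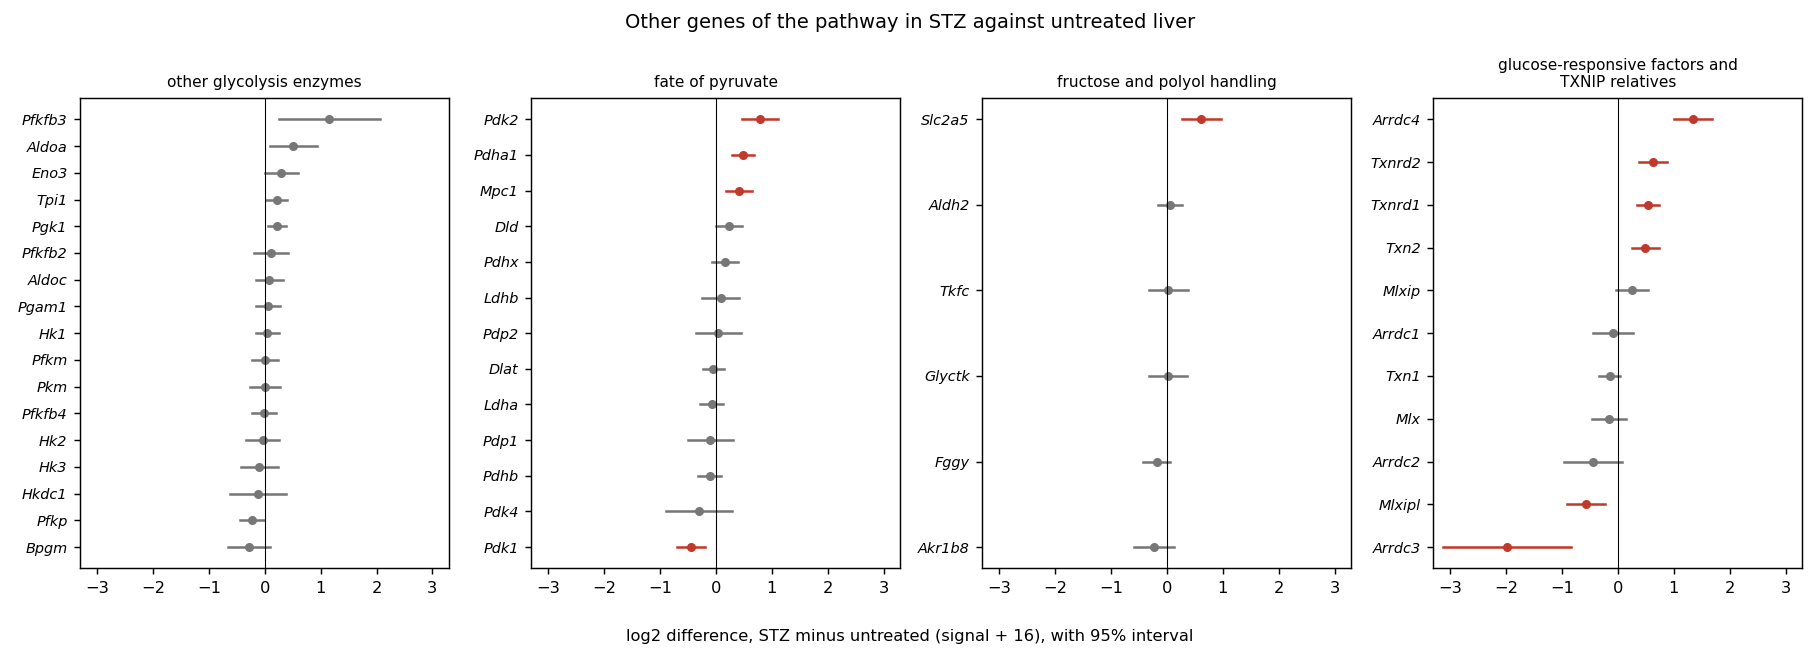
Log2 difference (x axis, STZ minus untreated, signal plus 16) of every tested gene of the 4 other lists, with its 95% interval; red marks a limma adjusted p under 0.05. No enzyme of the glycolysis list is red, whereas Arrdc4 (1.35) and Arrdc3 (−1.99) lie far apart in the list of Txnip relatives.

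Array medians lay between 11.2 and 17.1, and arrays of a group correlated between 0.971 and 0.985 across probe sets. The 3′ to 5′ signal ratio of actin, a measure of RNA integrity, was 1.62 to 2.48 on untreated and 1.76 to 2.36 on STZ arrays. Replicate 4 of the 0.1% group stood apart, with a highest signal of 37014 against 12257 to 20257 on the other 19 arrays, and a bioB spike-in signal of 769. That spike-in lay at 171 to 209 on untreated arrays, without overlap with 120 to 151 on STZ and 130 to 149 on 0.5% arrays. The creX spike-in did likewise, at 7060 to 8910 on untreated, 5015 to 6947 on STZ and 5653 to 6725 on 0.5% arrays. The bioC and bioDn spike-ins overlapped between these groups. BioC ran from 183 to 258 on untreated, 165 to 205 on STZ and 174 to 216 on 0.5% arrays. BioDn ran from 1407 to 1769, 971 to 1550 and 1202 to 1437 in that order. The part of these spike-in differences in the comparisons with untreated was not tested. Without replicate 4 of the 0.1% group, Gckr and Pklr differed from untreated by 0.52 and −1.11 in that group, close to the values with it. All 7 hepatocyte markers with a probe set were far above background, at mean signals of 4505 to 15910. Their summed signal was 78800 to 86150 in untreated and 56600 to 80280 in STZ mice. It reached 153600 in the 0.1% group, on the replicate 4 array that stood apart. Markers of T and NK cells, skeletal muscle and adipocytes all had mean signals under the highest array median. In STZ against untreated liver 3 of 7 stellate and 2 of 4 B cell markers were called, beside 13.8% of all genes. So was 1 of 7 hepatocyte, 1 of 9 Kupffer cell, 1 of 6 sinusoidal endothelium and 1 of 4 cholangiocyte markers. The same held for 1 of 6 T and NK cell, 1 of 3 erythroid and 1 of 4 pancreas markers. The summed pancreas markers, mostly Cela1, ran from 1458 to 1954 in untreated and 414 to 884 in STZ mice. Cela1 had a mean signal of 836, against 4.08 for Ins2, 1.39 for Cpa1 and 23.6 for Prss2. The summed B cell markers, mostly Ighm, ran from 362 to 488 in untreated and 95.3 to 149 in STZ mice. With 0.1% and 0.5% phloridzin the sums ran from 69.9 to 354 and from 98.3 to 156. Ighm had a mean signal of 159 and Jchain of 36.2, whereas Cd79a (9.62) and Ms4a1 (9.60) lay under the highest array median. The part of these cell type markers in the differences above was not tested.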

How the data were processed

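The deposited values are intensity values, 1 linear signal per probe set of an Affymetrix mouse array, which the authors had scaled to a common level: on all 20 arrays the mean is 100 once 2% of values are trimmed at either end. Software: not given in the sources used here. From 45101 probe sets, 34945 named a single gene. Controls (64), probe sets of several genes (932) and those without a listed gene (9160) were left out.

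From these, log2(signal + 16) was computed. Genes with a mean reaching the 40th percentile over non-control probe sets (8.48 in signal) were fitted with limma 3.58.1 in R 4.3.3 (4 group means, eBayes, two-sided, 16 residual and 4.56 prior degrees of freedom). P-values were adjusted by Benjamini and Hochberg over all 12947 genes, and the 95% intervals are limma's. The fit was tested on simulated data. Each array is 1 mouse, and 5 arrays per group limit the precision: the median interval was ± 0.30 log2 units. Groups had 6 mice, kept 3 to a cage. The cage of each array was not known here, so the intervals take no account of shared cages.

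Members and lists were chosen with earlier results of these data known. Every measured member is described. Up to 4 called genes per list and comparison, by smallest p, could be named, and 2 nearest genes per called member. Other genes are marked as named after their values were seen, and Pfkfb3 and Tkfc were also named so. Figures used matplotlib 3.10.9. Alternatives were other scalings, filters, pseudocounts, probe set rules, priors, weights, a replicate block and leaving out arrays; 2 were added after seeing the data.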

Additional observations from a re-analysis of the deposited data

Results flagged for a closer look

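In 20 sets of 5 mice (5 genes in 4 groups), 2 had a mouse set apart from the other 4 by more than Dixon's 95% limit of 0.71 for the gap over the range of log2 values. Chance gives about 1 in 20. STZ replicate 1 had a Khk signal of 4311, where its 4 group mates had 2887 to 3145 (gap over range 0.787). Replicate 1 of the 0.1% phloridzin group had a Txnip signal of 533 against 812 to 906 (0.793).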

How the results depend on the processing

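Gckr against untreated in the 0.1% group kept its call under all alternatives run. Counts of called members changed as follows. For STZ against untreated, 2 became 1 with quantile normalization, a pseudocount of 1, a trended robust prior, or STZ replicate 1 and 0.1% replicate 4 both left out (an alternative chosen after seeing the data), and 0 to 2 with 1 array left out. For 0.1% phloridzin against untreated, 1 became 2 with quantile normalization, a 60th percentile filter, array weights or only the 2 groups compared, and 1 to 3 with 1 array left out. For 0.5% against untreated, 1 became 0 with quantile normalization (Gckr adjusted p = 0.0512), median centring (0.0551), no filter (0.0565) or a pseudocount of 1 (0.0532), and 2 with array weights or only the 2 groups compared; with 1 array left out it was 0 to 2. In the other 3 comparisons it was 0 throughout.

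Over all genes, array weights gave 2851 calls from 1785 for STZ and 2610 from 1646 for 0.5% phloridzin against untreated. With 1 array left out the counts were 1171 (without STZ replicate 5) to 1991, and 944 (without 0.5% replicate 1) to 2188.

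Of 330 member differences under other settings, 306 kept direction and side of the threshold, and 10 reversed, none of them called in either fit. With the mean of probe sets Pfkl was −0.0608 for STZ, −0.0715 for 0.1% and −0.0022 for 0.5% phloridzin against untreated, since its probe sets differ in sign. For 0.1% against STZ, Khk was −0.0579 with quantile normalization and −0.0323 with median centring. For 0.5% against STZ, Gckr was 0.0117 with quantile normalization, 0.0177 with array weights and 0.0335 with both arrays left out, and Txnip was 0.0825 with array weights and 0.0592 with both left out; the cause was not tested.

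With 1 array left out, differences that changed sign ranged as follows. For 0.1% against STZ, Pklr was −0.15 to 0.46, Khk −0.12 to 0.11 and Txnip −0.0448 to 0.22. For 0.5% against STZ, Gckr was −0.0716 to 0.0521 and Txnip −0.20 to 0.11. Between doses, Pklr was −0.24 to 0.37, Khk −0.0254 to 0.18 and Txnip −0.28 to 0.0294. For 0.1% against untreated, Pfkl was −0.0275 to 0.0798.

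Same-numbered mice of different groups are different animals. Deviations from group means correlated from −0.41 to 0.50 over 30 same-numbered pairs, and 8 of 20 arrays correlated best with their own number. With the replicate number as a block, 2, 1 and 1 members were called against untreated (STZ, 0.1% and 0.5%), as without it (the block ended the call of Pkm), and 1923, 2368 and 1856 genes in place of 1785, 2168 and 1646. Signal near background limits the third Pfkl probe set and, among the listed genes, Hkdc1 and Pdp1, whose group means lay under the highest array median of 17.1.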
